A study of Mus musculus with 16 samples.

Results

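Endothelial nuclei of the mouse hippocampus were examined in single-nucleus RNA-seq libraries from wild-type and interferon-receptor-deficient mice given DMXAA or vehicle. A nucleus was counted as endothelial when it held 200 to 4000 detected genes, when mitochondrial genes made up at most 5% of its unique molecular identifiers (UMIs, 1 per captured RNA molecule), when at least 3 of the 7 genes Flt1, Cldn5, Mecom, Ptprb, Adgrl4, Slco1a4 and Tek were detected, and when at most 1 of the 6 genes Mog, Pdgfra, Slc17a7, Gad2, Csf1r and Col3a1 was detected. In all, 503 of 118205 nuclei that passed the limits on genes and mitochondrial UMIs met this rule (0.426%). The nuclei were thus chosen by their measured RNA, and the levels of the 7 genes are given as a description without a test.

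The study profiled 16 male mice, 1 library per mouse, in 4 groups of 4. WT vehicle and WT DMXAA mice were C57BL/6 animals aged 2 months and 23 days, and KO vehicle and KO DMXAA mice were Ifnar1-/- animals aged 3 months and 3 days, so that genotype, age and cohort cannot be told apart. Ifnar1-/- mice lack a subunit of the type I interferon receptor. DMXAA, a small molecule that activates mouse STING, was injected intraperitoneally 5 times over 12 days, the brain was perfused, and the hippocampus was collected 24 h after the last injection. Nuclei were sorted on a DNA dye, with no gate on cell type.

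Brain endothelial cells line the blood vessels and form the blood-brain barrier. They are sealed by tight junctions, they carry nutrients through dedicated transporters, and efflux pumps return foreign compounds to the blood. Endothelial cells carry the type I interferon receptor and also STING, a sensor that drives interferon production on activation. Interferon signalling acts through transcription factors that bind interferon-stimulated response elements in the promoters of interferon-stimulated genes (ISGs).

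The number of endothelial nuclei per library was low. WT vehicle libraries held 19, 42, 28 and 21 nuclei, WT DMXAA libraries 11, 32, 32 and 28, KO vehicle libraries 38, 36, 60 and 37, and KO DMXAA libraries 30, 27, 32 and 30. These nuclei carried 33342 to 236003 UMIs per library and 1786101 in all, out of library totals of 66059561 to 93228638. The median was 2650 UMIs and 1513 genes per endothelial nucleus, against library medians of 4168 to 5341 UMIs over all nuclei kept. WT vehicle replicate 1 and WT DMXAA replicate 1 held fewer than 20 endothelial nuclei and were left out of every fit, which left 14 libraries, and their values are shown per library and in group pools. Levels are given as CPM, the UMIs of a gene per 1000000 UMIs of the endothelial nuclei of that library or, for a pool, of all 4 libraries of the group.

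**Figure D1:**
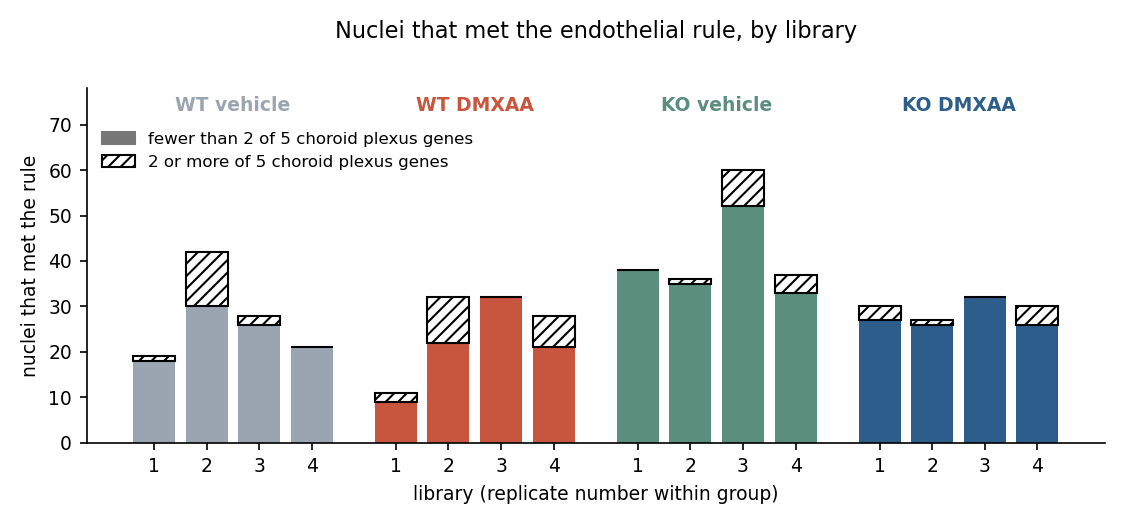
Endothelial nuclei per library (bars, linear axis from 0) for the 4 libraries of each group, with nuclei in which at least 2 of 5 choroid plexus genes were detected hatched. Libraries held 11 to 60 nuclei that met the rule, and WT vehicle replicate 2, with 12, and WT DMXAA replicate 2, with 10, held the most hatched nuclei.

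The identity of the nuclei was checked first on genes that the rule did not use. A group of 55 nuclei (10.9% of the 503, with 20.7% of their UMIs) had at least 2 of Kl, Folr1, Clic6, Otx2 and Htr2c, genes of the choroid plexus epithelium that secretes cerebrospinal fluid. Ttr, which encodes the transthyretin made in bulk by that epithelium, was detected in 100% of these 55 nuclei and Pecam1, a pan-endothelial adhesion molecule, in 3.64%. The labelled cell type was thus not borne out by these genes for the 55 nuclei, which are called choroid plexus gene nuclei here. Among the rule genes themselves, as a description, Mecom and Slco1a4 were detected in 100% of the 55 nuclei, Tek in 87.3% and Cldn5 in 0, and 54 of them met the rule with exactly 3 of the 7 genes. The choroid plexus gene nuclei numbered 1, 12, 2 and 0 in the WT vehicle libraries, 2, 10, 0 and 7 in the WT DMXAA libraries, 0, 1, 8 and 4 in the KO vehicle libraries, and 3, 1, 0 and 4 in the KO DMXAA libraries.

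The remaining 448 nuclei carried endothelial genes beyond the rule. Pecam1 was detected in 70.3% of them against 1.06% of all other nuclei kept, Cdh5, the endothelial cadherin, in 42.9% against 0.766%, and Fli1, an endothelial transcription factor, in 80.6% against 5.37%. Abcb1a, the efflux pump P-glycoprotein of the blood-brain barrier, was detected in 80.6% against 0.713%. On average 15.1 of 30 endothelial genes outside the rule were detected per nucleus among the 448, compared with 2.18 among the 55. Ttr was detected in 20.8% of the 448 and 20.6% of the other nuclei kept, at median depths of 2452 UMIs in the former and 4168 to 5341 per library over all nuclei kept. The astrocyte gene Aqp4 was detected in 3.35% and the microglial gene P2ry12 in 2.68%.

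**Figure D2:**
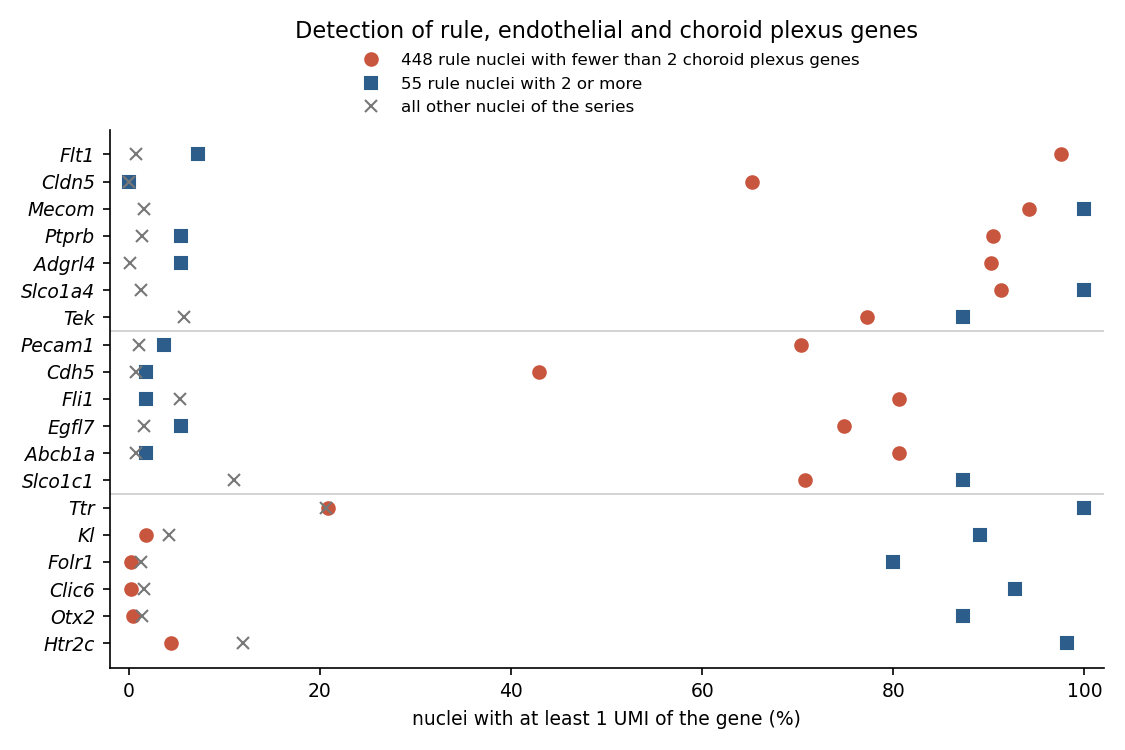
Percentage of nuclei with at least 1 UMI (linear axis) of the 7 rule genes, 6 further endothelial genes and 6 choroid plexus genes, in the 448 nuclei with fewer than 2 choroid plexus genes (circles), the 55 choroid plexus gene nuclei (squares) and all other nuclei kept (crosses). Cldn5 was detected in 65.2% of the 448 nuclei and in 0 of the 55, and Ttr in 20.8% and 100%.

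At the edge of the rule, 1097 nuclei had 2 of the 7 genes. These carried 1.05 CPM of Pecam1 and 4898 CPM of Ttr, whereas the 448 nuclei carried 587 CPM of Pecam1 and 104 CPM of Ttr. The 55 nuclei carried 8.12 CPM of Pecam1 and 10016 CPM of Ttr. Of the 448 nuclei, 200 had all 7 genes and 18 had 3. Genes with the highest ratio over the other nuclei were, besides the rule genes, Cyyr1 (983 against 0.828 CPM), the lymphocyte antigen 6 genes Ly6c1 (858 against 0.163 CPM) and Ly6a (761 against 0.303 CPM), the adhesion receptor gene Adgrf5 (821 against 0.924 CPM), Abcb1a (990 against 2.31 CPM), Zfp366, Ctla2a, Itm2a and Nostrin. A doublet score (Scrublet) placed 226 of the 503 among the highest-scoring barcodes of their libraries, 219 of them among the 448, with 13 to 30 per WT vehicle library, 1 to 20 per WT DMXAA library, 3 to 8 per KO vehicle library and 6 to 26 per KO DMXAA library. Barcodes of 16 of the 503 nuclei were also kept in another library, and 0 barcodes were shared between endothelial nuclei. Levels below are over the 448 nuclei unless stated, and fits were run on both the 503 and the 448.

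Genes of vessel segments were detected in partly separate sets of the 448 nuclei. Bmx, an arterial tyrosine kinase gene, was detected in 69 nuclei and Slc38a5, an amino acid transporter gene of veins and capillaries, in 54, and 1 nucleus held both. Mgp, a matrix protein gene of larger vessels, was detected in 79 nuclei, of which 53 were among the 69 with Bmx. Vwf, the von Willebrand factor gene, was detected in 164 nuclei, among them 39 of the 69 with Bmx and 23 of the 54 with Slc38a5. Of 84 nuclei with Mfsd2a, the capillary lipid transporter gene, 5 also held Bmx and 19 held Slc38a5. Rgs5, a pericyte gene, was detected in 78 nuclei, while Pdgfrb, the defining pericyte receptor, was detected in 15, of which 7 also held Rgs5. Abcc9, also a pericyte gene, was detected in 19 nuclei, of which 13 held Rgs5. These are counts of detected UMIs at the nuclei's own depth.

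The share of endothelial nuclei among nuclei kept was compared between treatments. In WT libraries it was 0.340% ± 0.13 (SD, n = 4) with vehicle and 0.314% ± 0.12 with DMXAA (two-sided exact permutation p = 0.80). KO vehicle libraries gave 0.690%, 0.553%, 0.832% and 0.545%, and KO DMXAA libraries 0.464%, 0.417%, 0.433% and 0.476%. All KO DMXAA values lay below all KO vehicle values, with a difference of -0.207 percentage points (two-sided exact permutation p = 0.0286, the smallest that 4 against 4 allows, adjusted p = 0.0571 over the 2 comparisons). This difference did not pass the threshold after adjustment, and after thinning each nucleus to 1000 UMIs it was -0.152 percentage points (exact permutation p = 0.0571). With none of the 6 excluded genes allowed the KO groups overlapped (-0.135, exact permutation p = 0.171), as they did with at least 2 rule genes (-0.326, exact permutation p = 0.429). Without the highest Scrublet doublet scores the difference was -0.431, again without overlap (exact permutation p = 0.0286, adjusted p = 0.0571). That setting left out 22 of 171 KO vehicle nuclei and 74 of 119 KO DMXAA nuclei, and the part of this in the difference was not tested.

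The knockout targets Ifnar1 (ENSMUSG00000022967), which lies on chromosome 16 from 91485238 to 91507441 (GRCm38). In the endothelial nuclei it was at 81.2, 154, 163 and 229 CPM in the WT vehicle libraries and 48.7, 204, 127 and 151 CPM in the WT DMXAA libraries. It was 274, 131, 114 and 140 CPM in the KO vehicle libraries and 238, 165, 292 and 234 CPM in the KO DMXAA libraries. The groups overlapped, and the KO vehicle minus WT vehicle log2 difference was 0.01 ± 0.38 (SE). The counts come from the 3′ ends of transcripts, and the labels do not say which part of the gene is disrupted, so that these counts do not check the genotype. Ifnar2, the partner subunit, lay at 228 and 260 CPM in the WT pools with vehicle and DMXAA, and at 182 and 267 CPM in the KO pools.

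The promoters of 3 ISGs are shown to place the letters that interferon-activated factors bind beside the values that follow. They are RefSeq sequences on GRCm38.p6, 250 bases before to 50 bases after the annotated start on the gene's own strand, and capitals mark the letters GAAANNGAAA, the core of the interferon-stimulated response element, on either strand. For Isg15, the ubiquitin-like modifier, the window is chr4:156200769-156201068 on the minus strand, with 3 overlapping matches that begin 78, 72 and 66 bases before the start. For Ifit3, an antiviral RNA-binding protein gene, it is chr19:34583279-34583578 on the plus strand, with 2 matches on the reverse strand (letters TTTCNNTTTC) that begin 156 and 122 bases before the start. For B2m, the light chain of MHC class I, it is chr2:122147437-122147736 on the plus strand, with 1 match that begins 139 bases before the start.
Isg15: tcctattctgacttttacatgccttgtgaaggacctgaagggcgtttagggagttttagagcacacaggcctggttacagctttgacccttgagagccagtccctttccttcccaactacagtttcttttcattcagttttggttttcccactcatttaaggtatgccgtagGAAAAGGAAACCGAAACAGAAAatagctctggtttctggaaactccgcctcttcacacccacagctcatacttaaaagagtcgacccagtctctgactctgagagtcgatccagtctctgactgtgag
Ifit3: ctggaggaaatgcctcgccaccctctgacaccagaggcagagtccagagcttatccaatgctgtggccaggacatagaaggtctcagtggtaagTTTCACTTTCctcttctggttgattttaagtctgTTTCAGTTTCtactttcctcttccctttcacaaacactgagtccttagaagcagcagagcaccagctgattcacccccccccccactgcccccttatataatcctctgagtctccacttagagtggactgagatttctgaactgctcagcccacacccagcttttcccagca
B2m: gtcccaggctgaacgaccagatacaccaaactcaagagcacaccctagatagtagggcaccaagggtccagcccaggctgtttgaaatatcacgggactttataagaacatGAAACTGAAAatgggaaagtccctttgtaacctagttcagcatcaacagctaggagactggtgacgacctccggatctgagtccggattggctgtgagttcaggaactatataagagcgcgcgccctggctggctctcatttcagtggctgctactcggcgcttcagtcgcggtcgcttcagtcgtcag
Ifitm3, a membrane protein gene that blocks virus entry, had 2 matches, which begin 2 and 19 bases after the start. No match was found for Irf7, Ifi44, Psmb8, H2-K1, H2-D1, Oasl2, Sp100 or Ly6c1, whose values are also given below. The letters were present in 943 of 27025 promoters of this length (3.49%), in 46 of the 98 ISGs that had a promoter in the table (46.9%) and in 27 of the 61 of these ISGs that entered the endothelial fit (44.3%). A match is a description of the letters and not a bound site.

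The summed level of ISGs was higher in WT endothelial nuclei after DMXAA, although edgeR called 0 of the single ISGs over the 14 libraries. The 123 ISGs of a list, which includes Ly6a, Ly6c1 and Ly6e, genes already abundant in vehicle endothelium, summed to 5440, 10307, 5382 and 9717 CPM in the WT vehicle libraries. They summed to 25660, 20775, 10834 and 18442 CPM in the WT DMXAA libraries. Every WT DMXAA library lay above every WT vehicle library, the lowest being replicate 3. Without the 3 Ly6 genes the sums were 4006, 6923, 4166 and 6649 CPM with vehicle and 18015, 13138, 8980 and 13365 CPM with DMXAA, also without overlap. Over all 503 nuclei the sums were 4753, 5383, 4946 and 9717 CPM with vehicle and 16946, 11066, 10834 and 10884 CPM with DMXAA.

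By single gene, edgeR called 0 of 10086 genes over the 503 nuclei at an adjusted p under 0.05 in WT DMXAA against WT vehicle (405 at an unadjusted p under 0.05, DESeq2 0). Over the 448 nuclei it called 0 of 8787 (percent called 0), with 483 at an unadjusted p under 0.05, 266 higher and 217 lower. Of the 76 ISGs tested there, 66 were higher with DMXAA and 10 lower, with a median log2 difference of 0.71, compared with 0.04 over all genes tested. At an unadjusted p under 0.05, 17 of the 76 were higher and 0 lower, where 3.03% of all genes were higher and 2.47% lower. Of the 76, 60 reached 20 UMIs without the WT DMXAA libraries, and only the remaining ones entered the fit through those libraries. Among the 60 ISGs that reached 20 UMIs without those libraries, 50 were higher and 10 lower, with a median of 0.67 against 0.03 over the 7978 such genes. Of the 60, 10 were higher and 0 lower at an unadjusted p under 0.05. In 18 of the 76, all WT DMXAA libraries lay above all WT vehicle libraries, where 1.25% of all genes did so. That was not counted over the 60. With all 16 libraries in the fit, an alternative chosen after the data were seen, 3 genes rose at an adjusted p under 0.05, Apod (adjusted p = 0.00812), H2-Q7 (0.0459) and Ifitm3 (0.0459). Of the 8 choroid plexus and ependyma genes, 2 were tested in the 448 nuclei, both were higher in WT with DMXAA (median 2.76) and 1 was so at an unadjusted p under 0.05. The 8 genes summed to 189.5, 321.7, 103.8 and 38.10 CPM in WT vehicle and 48.69, 298.6, 50.78 and 605.2 CPM in WT DMXAA, so that the groups overlapped, and their part in the ISG values was not tested.

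Isg15 (chromosome 4, 156199424 to 156200818), with the 3 overlapping promoter matches shown above, was at 0, 0, 74.1 and 76.2 CPM in the WT vehicle libraries and 876, 283, 110 and 437 CPM in the WT DMXAA libraries. The 2 groups did not overlap. The log2 difference was 2.50 ± 0.78 (SE, adjusted p = 0.736 by edgeR), and 2.18 ± 0.82 over the 503 nuclei. Irf7, the transcription factor that amplifies interferon production, was at 27.1, 28.0, 14.8 and 0 CPM with vehicle and 97.4, 157, 50.8 and 286 CPM with DMXAA, again without overlap (log2 difference 3.27 ± 0.90). Ifit3 was at 27.1, 28.0, 14.8 and 38.1 CPM with vehicle and 341, 126, 76.2 and 168 CPM with DMXAA (2.18 ± 0.74). Ifit1, Ifi44, Gbp3 and Psmb8 likewise did not overlap between the 2 groups, and the guanylate-binding protein gene Gbp3 lay at 21.9 and 80.2 CPM in the WT pools.

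Ifitm3 (chromosome 7, 141009586 to 141010770) was at 108, 462, 104 and 514 CPM with vehicle and 2629, 2200, 618 and 1984 CPM with DMXAA in WT. Its lowest DMXAA library lay above its highest vehicle library (log2 difference 2.21 ± 0.54, adjusted p = 0.422 by edgeR over 14 libraries). Ly6a was at 433, 1245, 430 and 1010 CPM with vehicle and 3798, 3284, 804 and 2236 CPM with DMXAA (1.29 ± 0.50), so that the groups overlapped. Ly6c1 lay at 976 CPM in the WT vehicle pool and 1558 CPM in the WT DMXAA pool.

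Genes of MHC class I antigen presentation also lay higher in WT with DMXAA, although edgeR called 0 of them over the 14 libraries. Of 21 genes, 13 of which are also on the ISG list, 16 were tested, and 13 of them were higher, with a median log2 difference of 1.17 against 0.04 over all genes. At an unadjusted p under 0.05, 5 were higher, where 3.03% of all genes were. Genes entered the fit by their UMIs over all fitted libraries, WT DMXAA among them. These counts were not repeated without that group, so that they are a description. H2-K1, a classical class I heavy chain, was at 135, 545, 119 and 248 CPM with vehicle and 1753, 1587, 796 and 925 CPM with DMXAA (1.90 ± 0.57). B2m (chromosome 2, 122147686 to 122153083) was at 108, 559, 222 and 400 CPM with vehicle and 633, 1131, 660 and 1210 CPM with DMXAA (1.39 ± 0.44). Neither gene overlapped between the 2 groups. H2-D1 was at 108, 685, 178 and 400 CPM with vehicle and 974, 1666, 542 and 1143 CPM with DMXAA, which overlap (1.45 ± 0.47). H2-Q7 (chromosome 17, 35439155 to 35443773), a non-classical class I gene, was at 0, 14.0, 0 and 0 CPM with vehicle and 146, 220, 67.7 and 286 CPM with DMXAA (4.86 ± 1.02, adjusted p = 0.189). H2 genes are near copies of each other, so that the counting could split their reads.

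In KO endothelial nuclei the ISG sum lay below the lowest WT DMXAA value with either treatment. The sum was 3263, 2792, 4491 and 4247 CPM in the KO vehicle libraries and 4083, 3790, 5753 and 5454 CPM in the KO DMXAA libraries, and the groups overlapped. Irf7, Ifit3 and Ifi44 had 0 UMIs in both KO groups, where 3 UMIs would be 5.19 CPM with vehicle and 8.60 CPM with DMXAA. Isg15 had 0 UMIs in KO vehicle and 5 UMIs in KO DMXAA, in replicates 3 and 4 (9.73 and 55.0 CPM). H2-K1 was at 29.6, 65.4, 70.7 and 132 CPM with vehicle and 34.0, 0, 175 and 96.2 CPM with DMXAA.

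In KO DMXAA against KO vehicle edgeR called 0 of 8787 genes (percent called 0; 405 at an unadjusted p under 0.05, 147 higher and 258 lower), and 0 of 10086 over the 503 nuclei (370 at an unadjusted p under 0.05, DESeq2 0). Of the 76 ISGs, Irf7, Ifit3 and Ifi44 had no KO UMIs to compare, and of the remaining 73, 48 were higher and 25 lower, with a median of 0.15 where all genes had -0.03. Of these, 3 were higher and 0 lower at an unadjusted p under 0.05, where 1.67% of all genes were higher and 2.94% lower, namely Ifi203, Ifih1 and Isg15. The difference between the WT and KO effects was tested directly, and edgeR called 0 of 8787 genes (percent called 0; 554 at an unadjusted p under 0.05, 360 with the larger effect in WT) and 0 of 10086 over the 503 nuclei (471, DESeq2 0). For 54 of the 73 ISGs with UMIs in KO the effect was larger in WT, with a median difference of effects of 0.54 on the log2 scale against 0.06 over all genes, and for 4 it was so at an unadjusted p under 0.05, against 4.10% of all genes. Some of these genes passed the limit of 20 UMIs through WT libraries only. Among the 51 that reached it in the KO libraries alone, the effect was larger in WT for 37, with a median of 0.52 against 0.09 over the 7061 such genes. Ifitm3 had 2.33 ± 0.79 (adjusted p = 0.65 by edgeR) and H2-K1 1.86 ± 0.84 (adjusted p = 0.759). The interferon response of WT endothelial nuclei was thus not shown to differ from that of KO nuclei gene by gene at this depth.

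**Figure D3:**
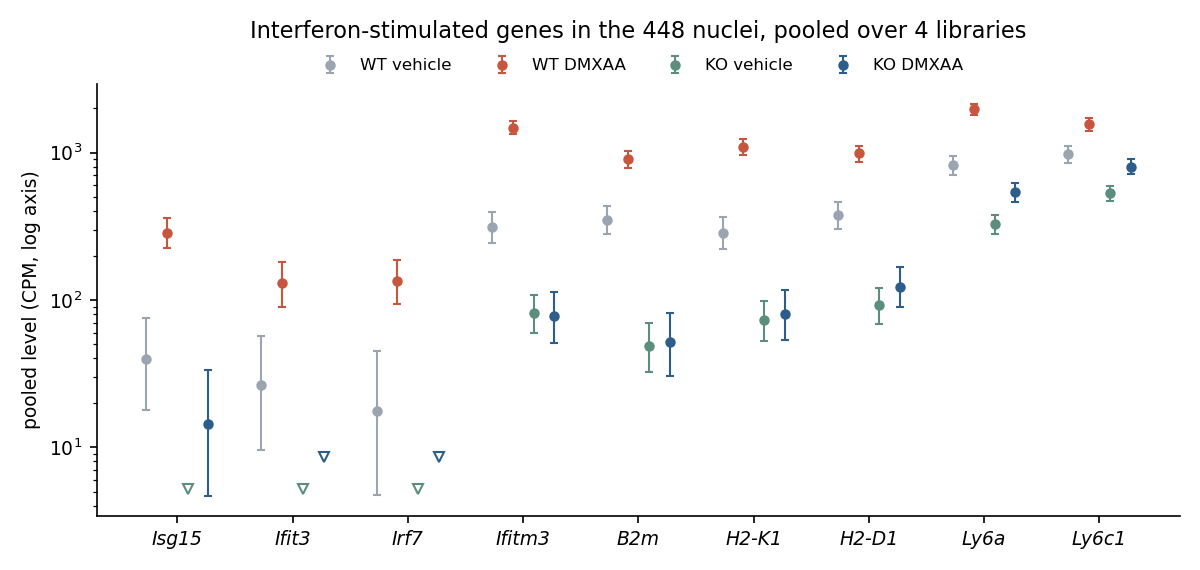
Pooled level in CPM (log axis) of 9 interferon-related genes in the 448 endothelial nuclei of each group, with exact Poisson 95% intervals as bars (counting error only) and open triangles at the level of 3 UMIs where a group had 0 UMIs. Isg15 was at 39.4 CPM in WT vehicle and 286 CPM in WT DMXAA, and had 0 UMIs in KO vehicle.

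Counted by nucleus, 5 genes chosen after their values were seen (Isg15, Ifit1, Ifit3, Ifi44 and Irf7) were detected, as at least 1 UMI of any, in 20 of 95 WT vehicle nuclei (21.1%, exact binomial 95% interval 13.4 to 30.6) and 42 of 84 WT DMXAA nuclei (50.0%, 38.9 to 61.1). They were detected in 1 of 158 KO vehicle nuclei (0.633%, 0.0160 to 3.48) and 4 of 111 KO DMXAA nuclei (3.60%, 0.990 to 8.97). Median depths were 1880, 2580, 2963 and 2320 UMIs per nucleus in that order. Among all other nuclei kept, the shares were 1.27%, 12.8%, 0.553% and 0.728% at median depths of 4649, 4448, 4766 and 4622 UMIs. With every endothelial nucleus thinned to 1000 UMIs the shares were 12.2%, 35.8%, 0.645% and 0.935%, and 5, 3, 3 and 4 shallower nuclei were left out. The last of these is 1 of 107 nuclei. Intervals cover counting error only, and nuclei of 1 library are not replicates, so that these shares are a description.

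The vehicle groups of the genotypes were compared in the same way. In KO vehicle against WT vehicle edgeR called 4 of 8787 genes (0.0455%), all lower in KO, namely B2m, Ptgds, Nnat and Rps28, and 0 of 10086 over the 503 nuclei (1141 at an unadjusted p under 0.05, DESeq2 18). B2m was at 14.8, 43.6, 59.8 and 74.4 CPM in the KO vehicle libraries, all below the WT vehicle values given above (log2 difference -2.85 ± 0.47, adjusted p = 0.0143, and 0.106 over the 503 nuclei). With all 16 libraries the adjusted p was 0.0656. The calls were not stable: with all 16 libraries 1 gene was called, and it was not B2m. Fits meant to leave out single libraries drew on libraries outside the 14, so they cannot say whether the calls rest on single libraries. Of the 76 ISGs, 1 was called over the 14 libraries (B2m). Of these ISGs, 64 were lower in KO and 12 higher, with a median log2 difference of -0.95 against 0.11 over all genes. At an unadjusted p under 0.05, 24 were lower and 1 higher, where 6.02% of all genes were lower and 7.29% higher. Only 51 of the 76 reached 20 UMIs in the KO libraries alone, so that the others entered the fit through WT libraries. Irf7, Ifit3 and Ifi44 had 0 KO UMIs. These counts were not repeated over the 51 and are a description. Rps28, a ribosomal protein gene, was at 27.1, 294, 163 and 381 CPM in WT vehicle and 51.8, 21.8, 59.8 and 49.6 CPM in KO vehicle (-2.40 ± 0.42, adjusted p = 0.017). Ptgds, the prostaglandin D synthase of meningeal and choroid plexus cells, was at 81.2, 1650, 10838 and 667 CPM in WT vehicle and 22.2, 29.1, 76.1 and 339 CPM in KO vehicle, so that WT vehicle replicate 3 held most of it. Nnat was at 0, 55.9, 504 and 171 CPM and 37.0, 7.27, 10.9 and 8.26 CPM. This comparison shares its WT vehicle libraries with that of WT DMXAA.

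Cldn5, the main tight junction protein of brain endothelium and 1 of the 7 rule genes, was at 920, 2447, 830 and 1372 CPM in WT vehicle and 548, 225, 468 and 537 CPM in KO vehicle. Klf2, a transcription factor gene that responds to blood flow, was at 406, 1133, 712 and 1677 CPM and at 281, 225, 391 and 289 CPM. The Cldn5 levels are a description, since the nuclei were chosen on that gene. For Klf2 the genotypes did not overlap, as in 3.72% of all genes with the same direction, and edgeR did not call it (-1.82 ± 0.43, adjusted p = 0.104). Of 15 immediate early and stress genes tested, Klf2 among them, 14 were lower in KO vehicle (median -1.16 against 0.11 over all genes) and 7 were so at an unadjusted p under 0.05, where 6.02% of all genes were. Median depth of the 448 nuclei was 1700 to 1954 UMIs in WT vehicle libraries and 2715 to 3392 UMIs in KO vehicle libraries, and its part in these differences was not tested. The 3 blood cell genes tested, of 8 listed, were all higher in KO vehicle at an unadjusted p under 0.05 (median 5.01), where 7.29% of all genes were. The 2 smooth muscle genes tested (median -3.25) and the 1 fibroblast gene tested (-2.70) were lower. For 0 of these genes were the 2 vehicle groups without overlap. The highest sums were in KO vehicle replicate 2 for blood and, within WT vehicle, in replicate 2 for smooth muscle and replicate 4 for fibroblasts. Genes entered the fit by their UMIs over all fitted libraries, these among them, so that the counts are a description. The part of these markers was not tested.

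The endothelial response in WT was set beside those of microglia (5869 nuclei) and astrocytes (13147 nuclei) of the same libraries. The 123 ISGs summed to 2584, 2485, 2973 and 2161 CPM in microglia of WT vehicle mice and 14628, 7950, 5037 and 8379 CPM in those of WT DMXAA mice. In astrocytes the sums were 928.4, 986.6, 938.5 and 794.8 CPM with vehicle and 4249, 2266, 1340 and 2088 CPM with DMXAA. In all 3 classes replicate 1 was the highest and replicate 3 the lowest of the WT DMXAA libraries, while with vehicle each endothelial sum lay above the microglial and astrocyte sums.

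**Figure D4:**
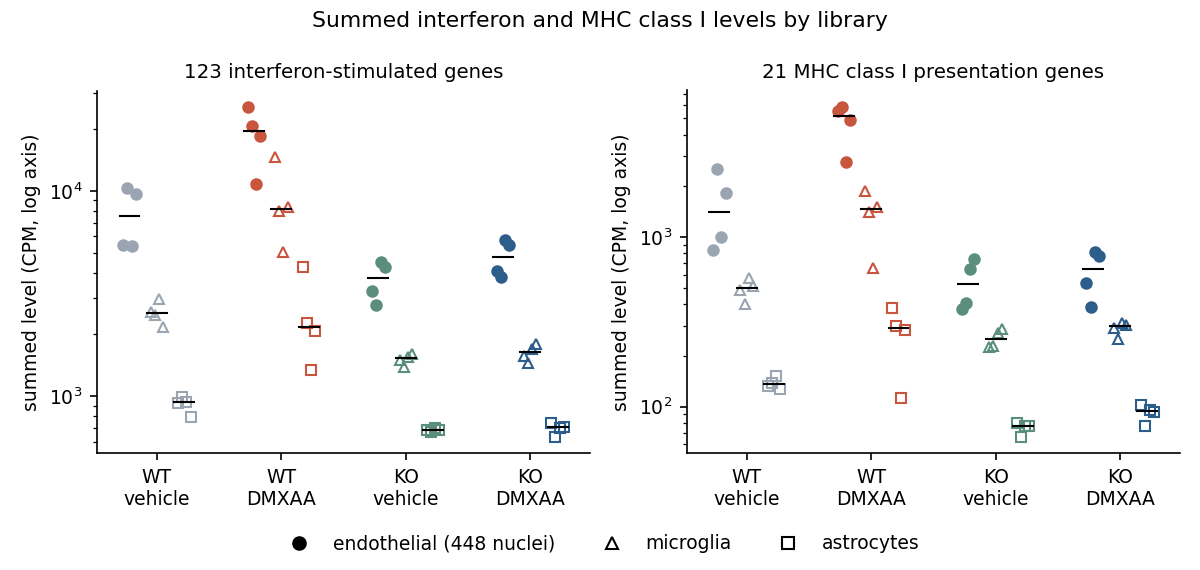
Summed CPM (log axis) of 123 ISGs and of 21 MHC class I genes per library in endothelial nuclei (filled circles), microglia (open triangles) and astrocytes (open squares), with medians as ticks. Endothelial ISG sums were 5382 to 10307 CPM in WT vehicle and 10834 to 25660 CPM in WT DMXAA, and 2792 to 5753 CPM in the KO groups.

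The difference of the responses was tested in WT libraries with the library as a block. Between endothelial nuclei and microglia edgeR called 12 of 14577 genes (0.0823%), 2 with the larger log2 effect in endothelium and 10 with the smaller, and DESeq2 called 1. Among these, 4 were ISGs, each with the smaller effect in endothelium. Slfn5, a member of the Schlafen family, lay at 193 CPM in the WT vehicle pool and 183 CPM in the WT DMXAA pool of endothelial nuclei, and at 4.45 and 98.2 CPM in microglia (difference of effects -4.76 ± 0.68, adjusted p = 4.27e-08). Sp100, a nuclear body protein gene, lay at 245 and 264 CPM in endothelium and 19.5 and 252 CPM in microglia (-3.85 ± 0.58, adjusted p = 2e-07). Oasl2, related to the antiviral oligoadenylate synthetases, lay at 101 and 180 CPM in endothelium and 8.91 and 198 CPM in microglia (-3.19 ± 0.68, adjusted p = 0.00673). Ly6a lay at 819 and 1967 CPM against 0.234 and 14.1 CPM (-4.93 ± 1.05, adjusted p = 0.00673). Its microglial level with vehicle was at the lower limit of counting, on which this log2 difference depends. All 4 had higher CPM in endothelial than in microglial pools of vehicle mice. With each of the 6 libraries left out in turn, Slfn5 and Sp100 were called in 6 of 6 fits, with adjusted p up to 7.18e-04 and 0.00581. Oasl2 was called in 3 of 6 (not without WT vehicle replicate 4, WT DMXAA replicate 2 or WT DMXAA replicate 4) and Ly6a in 4 of 6 (not without WT vehicle replicate 2 or 4). The number of genes called was 4 without WT vehicle replicate 4 and 7 without WT DMXAA replicate 4. With a stricter filter on low counts (filterByExpr) edgeR called 0 genes, and the adjusted p was 0.161 for Slfn5 (-4.75 ± 0.82) and 0.236 for Sp100 (-3.83 ± 0.76). DESeq2 called Slfn5 (adjusted p = 0.0238) and not Sp100 (0.107).

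The other genes called with the smaller effect in endothelium were Atp10a, Eln, Ptgds, Ranbp3l, Slc7a11 and Slc6a20a, and those with the larger effect were Sema3a and Hecw2. Against astrocytes edgeR called 7 of 15904 genes (0.0440%, DESeq2 0). They were Oasl2 (-3.28 ± 0.69, adjusted p = 0.0172), Mgp, Ranbp3l, Ptgds, Nnat and Smoc1 with the smaller effect in endothelium, and Sema3a with the larger, and 1 gene was called without WT DMXAA replicate 4. Several rested on 1 library. Ranbp3l was at 991 CPM in endothelial nuclei of WT vehicle replicate 4 and at 0 to 27.1 CPM in the other WT libraries, and Sema3a was at 457 CPM in WT DMXAA replicate 3 and at 0 in the other WT libraries. WT vehicle replicate 4 also held 1391 CPM of the fibroblast list against 27.07 to 207.6 CPM in the other WT vehicle libraries, and the part of these markers in the calls was not tested. Over the 448 nuclei 12 of 14382 genes (0.0834%) and 9 of 15825 (0.0569%) were called, with Slfn5, Sp100, Oasl2 and Ly6a among the former.

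Genes outside the ISG list that ranked first in WT included Apod and clock genes. Apod (chromosome 16, 31296192 to 31314808), a secreted lipid-binding protein gene, was at 54.1, 196, 297 and 152 CPM with vehicle and 1655, 1493, 635 and 992 CPM with DMXAA, without overlap (2.30 ± 0.44, adjusted p = 0.189 by edgeR over 14 libraries). In KO it was at 22.2, 43.6, 27.2 and 99.1 CPM with vehicle and 45.4, 23.5, 68.1 and 27.5 CPM with DMXAA. In all other nuclei it was at 78.3 CPM and 150 CPM in the 2 WT groups. Scgb3a1, which encodes a secreted protein, lay at 8.76 CPM in the WT vehicle pool and 153 CPM in the WT DMXAA pool.

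Dbp (chromosome 7, 45705088 to 45710203), a transcription factor gene under control of the circadian clock, was at 54.1, 112, 59.3 and 191 CPM in WT vehicle and 0, 0, 8.46 and 16.8 CPM in WT DMXAA (-3.55 ± 0.76, adjusted p = 0.189). In KO it was at 81.4, 58.2, 103 and 57.8 CPM with vehicle and 159, 94.2, 97.3 and 165 CPM with DMXAA, and the difference of effects was -4.23 ± 0.87 (adjusted p = 0.477 by edgeR). Npas2, a clock activator, had 0 UMIs in all WT vehicle libraries and 48.7, 47.1, 67.7 and 50.4 CPM in the WT DMXAA libraries. Arntl, its partner, lay at 17.5 CPM and 64.9 CPM in the WT pools. Dbp thus lay lower with DMXAA in the WT libraries while the activators lay higher, and edgeR called 0 of these genes. Of 26 clock and glucocorticoid genes tested, 3 were higher and 5 lower at an unadjusted p under 0.05 in WT, where 3.03% of all genes were higher and 2.47% lower. In KO 0 were higher and 0 lower, where 1.67% and 2.94% of all genes were. The labels give no hour of collection, and its part was not tested.

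The remaining genes with the lowest p in WT were Hecw2, higher with DMXAA, and Ptgds, Gkn3, Ranbp3l and Tm4sf1, lower. Gkn3, an arterial gene, was at 0, 224, 29.7 and 133 CPM with vehicle and had 0 UMIs in all WT DMXAA libraries. In KO the lowest p belonged to Chchd4, Usp5, Cenpx, Ranbp10 and 1700029J07Rik, higher, and to Ptprn2, E130308A19Rik, C530008M17Rik, Slc35f1 and Faxc, lower. Ptprn2, a receptor phosphatase gene, lay at 244 CPM in KO vehicle and 51.6 CPM in KO DMXAA endothelial nuclei, and at 1071 and 927 CPM in the other nuclei. For the difference of the effects they were Npas2, Arntl, Faxc, Dpp10 and Tafa1, with the larger effect in WT, and Dbp, Btg2, Sc5d, Car4 and Rundc3b, with the smaller. Between the vehicle groups Zdhhc14, Kirrel3, Kif13a, Extl3 and Snx29 were higher in KO with the lowest p, and Chchd10 was lower.

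Barrier transport genes were compared as a group of 32, with the rule gene Slco1a4 left out. They summed to 13857, 12727, 11549 and 13260 CPM in WT vehicle and 11053, 10278, 10927 and 11196 CPM in WT DMXAA, so that the highest DMXAA library lay just below the lowest vehicle library. Over all 503 nuclei the WT groups overlapped. By gene, 9 of 30 tested were higher and 21 lower in WT, with a median of -0.26 against 0.04 over all genes. Of these, 2 were higher and 1 lower at an unadjusted p under 0.05, where 3.03% of all genes were higher and 2.47% lower. In KO the sums were 14364, 8601, 12826 and 11145 CPM with vehicle and 13835, 13864, 16217 and 16212 CPM with DMXAA, with overlap. There 23 of 30 genes were higher (median 0.30 against -0.03 over all genes), 5 of them at an unadjusted p under 0.05, where 1.67% of all genes were. Over all 503 nuclei 20 of 30 were higher in KO (median 0.24), 2 of them at an unadjusted p under 0.05. edgeR called 0 genes of the list in either genotype, and the median difference of effects was -0.53.

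Among the transporters, the efflux pump Abcb1a lay at 854 CPM in the WT vehicle pool and 833 CPM in the WT DMXAA pool (log2 difference -0.09 ± 0.36), and the efflux pump Abcg2 at 893 and 756 CPM (-0.09 ± 0.31). The glucose transporter Slc2a1 lay at 1401 and 1001 CPM (-0.34 ± 0.35), and the thyroid hormone transporter Slco1c1 at 1138 and 1020 CPM (-0.13 ± 0.34). The amino acid transporter Slc7a5 lay at 609 and 317 CPM. Each of these differences was under 2 standard errors. Car4, a capillary carbonic anhydrase gene, was at 406, 350, 208 and 400 CPM with vehicle and 97.4, 94.3, 59.2 and 286 CPM with DMXAA in WT (-1.14 ± 0.51), and at 155, 58.2, 256 and 198 CPM and 261, 306, 380 and 357 CPM in KO (0.90 ± 0.40). Its difference of effects was -2.04 ± 0.65 (adjusted p = 0.65 by edgeR). Of the 13 capillary genes, 7 are also on the barrier transport list. In WT 11 were lower (median -0.58 against 0.04 over all genes). In KO 12 were higher (median 0.44 against -0.03). At an unadjusted p under 0.05, 2 were lower and 1 higher in WT, and 3 were higher and 0 lower in KO. Their sums were 5142, 4965, 4270 and 6249 CPM in WT vehicle and 6524, 4070, 3572 and 4287 CPM in WT DMXAA. WT DMXAA replicate 1, left out of the fit, was the highest WT library, and the groups overlapped in both genotypes.

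**Figure D5:**
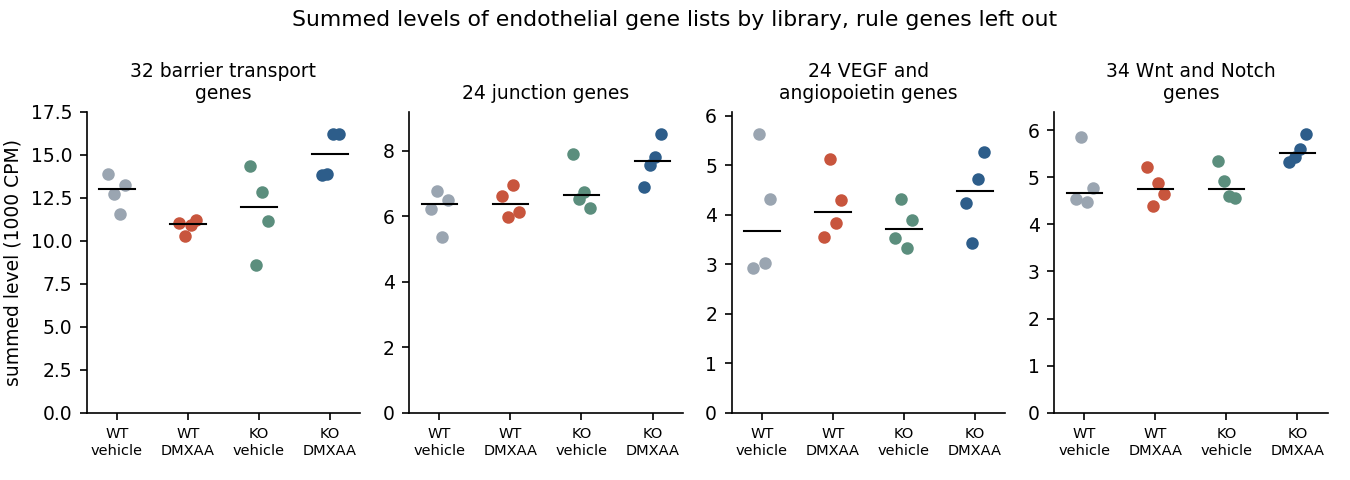
Summed level in units of 1000 CPM (linear axis from 0) of 32 barrier transport, 24 junction, 24 VEGF and angiopoietin, and 34 Wnt and Notch genes, rule genes left out, per library in the 448 endothelial nuclei, with medians as ticks. Barrier transport sums were 10278 to 11196 CPM in WT DMXAA and 11549 to 13857 CPM in WT vehicle.

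Junction genes had list medians near 0. The 24 genes of the list other than the rule gene Cldn5 summed to 6225, 6769, 5352 and 6497 CPM in WT vehicle and 6622, 5972, 6949 and 6119 CPM in WT DMXAA, with medians of 0.09 in WT and 0.16 in KO over 18 genes tested. Cldn5 was at 1704, 1902, 1016 and 1765 CPM in WT DMXAA, within the range of its WT vehicle values. The scaffold gene Tjp1 lay at 1765, 1898, 1937 and 2217 CPM in the 4 group pools and Pecam1 at 473, 573, 634 and 597 CPM. VEGF and angiopoietin genes other than the 3 rule genes among them had medians of -0.08 in WT and 0.31 in KO over 20 tested, and the VEGF receptor and rule gene Flt1 lay at 4681 and 3743 CPM in the WT pools. Wnt and Notch genes, which maintain barrier and arterial identity, had medians of -0.02 and 0.16 over 30 tested. Transcytosis and caveolae genes had -0.53 and 0.28 over 12 tested, with -0.22 in WT over the 503 nuclei. Venous genes had -0.01 and 0.30 over 12, and the 6 tested genes of fenestrated endothelium 1.68 and 0.65. All 6 were higher with DMXAA in both genotypes. At an unadjusted p under 0.05, 3 were so in WT, where 3.03% of all genes were, and 1 in KO, where 1.67% were. For 0 of the 6 did all WT DMXAA libraries lie above all WT vehicle libraries. The 10 fenestrated genes summed to 351.8, 447.5, 370.6 and 438.2 CPM in WT vehicle and 340.8, 487.2, 787.2 and 1059 CPM in WT DMXAA, with overlap, and the KO groups overlapped too. Arterial genes had -0.67 and -0.33 over 16. Their sums were 2652, 8839, 4181 and 5582 CPM in WT vehicle and 2240, 5925, 3250 and 2892 CPM in WT DMXAA, and the 10 smooth muscle genes summed to 0, 979.0, 74.13 and 152.4 CPM and to 0, 62.86, 16.93 and 33.62 CPM. WT vehicle replicate 2 was the highest WT library in both lists, the 2 smooth muscle genes tested were both lower at an unadjusted p under 0.05, where 2.47% of all genes were, and their part in the arterial values was not tested. No member of these lists was called in either treatment comparison.

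Adhesion and activation genes were sparse. Of 46, 21 were tested, 8 were higher and 12 lower in WT (median -0.04 against 0.04 over all genes), and 1 was higher and 1 lower at an unadjusted p under 0.05, where 3.03% and 2.47% of all genes were. Icam1, a leukocyte adhesion receptor, lay at 35.0 CPM in the WT vehicle pool and 45.8 CPM in the WT DMXAA pool, and Vcam1, another, at 175 and 95.5 CPM. The selectin genes Sele and Selp had at most 2 UMIs in any group, the interferon-induced chemokine gene Cxcl10 had 1 UMI in all, and Ccl5 had 0, which allows up to 3 UMIs per group. Differences in these genes were not detectable at this depth. The 21 interferon and STING signalling genes had medians of 0.04 in WT and 0.19 in KO over 14 tested, and the 15 tested immediate early and stress genes -0.26 and 0.70, with -0.48 in WT over the 503 nuclei. Over the 503 nuclei the VEGF and angiopoietin median in WT (0.08) and the KO medians of the Wnt and Notch (-0.04) and the interferon and STING signalling genes (-0.02) had the opposite sign.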

How the data were processed

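Nuclei from the hippocampus of 16 mice were profiled with the 10x Chromium 3′ kit (v3 per the study's methods). The deposited values are raw UMI counts of each gene in each barcode that the authors' Cell Ranger run kept as a cell, and they were not scaled. Per the study's methods, the authors counted reads on mm10 pre-mRNA. The submitters' notes name Cell Ranger 3.1.0 and Seurat 3.0, whereas the matrix headers name version 6.1.2. A total of 0 columns of per-sample values had no sample. Doublets that the authors removed with DoubletFinder are not marked in the matrices, and no nucleus was removed here as a doublet. Scrublet (scanpy 1.11.5, 0.8% per 1000 barcodes) was run only to count the highest scores.

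Endothelial UMI counts were summed per library. Groups came from the labels, and replicate numbers only name the libraries. Libraries with at least 20 nuclei entered 1 edgeR 4.0.16 quasi-likelihood fit with TMM factors over genes with at least 20 UMIs (3 libraries in each WT group and 4 in each KO group). Genes were called at a Benjamini-Hochberg adjusted p under 0.05 and an absolute log2 difference over 0.1. The 3 or 4 libraries of a group are separate mice. Responses of 2 classes were compared with the library as a block, and shares by exact permutation tests. DESeq2 1.42.0 was an alternative. The depth sets the precision: a gene with 3 UMIs in a library pool is at the limit that a count of 0 allows, and Poisson and binomial intervals cover counting error only. The scripts were tested on simulated data.

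Named genes were all called genes (up to 30 per comparison), otherwise the 5 with the lowest p in each direction, the rule genes, Ifnar1, up to 6 abundant members of each list and 15 leading genes. Other genes with printed values, among them Isg15, Ifit1, Ifit3, Irf7 and Ifi44, were chosen after their values were seen. Some genes are not reported here. The nuclei, lists and rules were chosen with earlier results of these data known. The set without choroid plexus gene nuclei was added after the data were seen, as were all fits on it. R 4.3.3, scipy 1.17.1 and Python 3.11.15 were used, and gene coordinates are from GENCODE on GRCm38.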

Additional observations from a re-analysis of the deposited data

How the results depend on the processing

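No paired analysis was possible because the replicate numbers were given in accession order and pair no mice. For genes called in WT DMXAA against WT vehicle, 0 over all 503 nuclei, the count was 22 with no filter on low counts, 1 with at least 2 rule genes, and 3 over the 448 nuclei with all libraries entering. It was 21 in KO and 25 for the interaction with no filter. For genes called in KO vehicle against WT vehicle, 0 in all 503 nuclei, it was 18 by DESeq2, 2 with filterByExpr, 148 with no filter, 304 with at least 2 rule genes, 4 with at least 4, 4 over the 448 nuclei, 1 there with all libraries and 33 there by DESeq2. The cause of these differences was not tested. Of the class differences, 12 genes against microglia became 1 by DESeq2 and 0 with filterByExpr, and 7 against astrocytes became 0 and 0.

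The ISG median, 0.60 in WT over the 503 nuclei, was 1.11 with at least 2 rule genes, its interaction, 0.48, was 1.20 there and 0.12 with filterByExpr, and its genotype difference was -1.24 with filterByExpr and -0.03 with at least 2 rule genes. The MHC class I median was 1.49 in WT over the 448 nuclei with all libraries, its interaction, 0.51 over the 503, was 0.99 there, 1.09 with at least 2 rule genes and 0.33 by DESeq2, and its genotype difference -1.89 with filterByExpr and -0.32 with at least 2 rule genes. The barrier transport median (Slco1a4 included) reversed with at least 2 rule genes, to 0.20 in WT and -0.21 in KO. That setting admits nuclei with little endothelial RNA. The WT share difference of -0.0253 percentage points reversed to 0.118 with at least 2 rule genes, 0.0204 with none of the 6 excluded genes and 0.103 without the highest Scrublet scores. The KO difference was -0.326, -0.135 and -0.431 under these settings in that order. The Scrublet setting left out 85 of 110 WT vehicle nuclei and 45 of 103 WT DMXAA nuclei.

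When each library was left out in turn, genes called numbered 0 to 3 in WT (3 over the 448 nuclei without KO vehicle replicate 1 or 4), 0 in KO, 0 to 1 for the interaction (1 without WT DMXAA replicate 2) and 0 to 11 between vehicle groups, the highest being over the 448 nuclei without KO vehicle replicate 1. They numbered 4 to 16 against microglia (4 without WT vehicle replicate 4, 7 without WT DMXAA replicate 4) and 1 to 9 against astrocytes (1 without WT DMXAA replicate 4, 2 without WT vehicle replicate 3 or WT DMXAA replicate 2, 3 without WT vehicle replicate 4). ISG medians ranged from 0.43 to 0.96 in WT, 0.28 to 0.82 for the interaction and -1.01 to -0.52 between vehicle groups. MHC class I medians ranged from 0.76 to 1.02, 0.29 to 1.06 and -1.27 to -0.36. Barrier transport medians ranged from -0.53 to -0.03 in WT and 0.11 to 0.43 in KO. Left-out fits over the 448 nuclei cannot show what rests on single libraries. Some of them tested 17 MHC class I genes, against 16 with the 14 libraries, so they held libraries outside the 14. The library each left out is uncertain. They called 0 to 3 genes in WT (3 where labelled without KO vehicle replicate 1 or 4). Between vehicle groups they called 0 to 11, the highest where labelled without KO vehicle replicate 1. Their ISG medians reached 0.96 in WT, 0.82 for the interaction and -1.01 between vehicle groups. Their MHC class I medians reached 1.58, 1.14 and -1.49. The WT share difference ranged from -0.0610 to 0.0360 (0.0328 without WT DMXAA replicate 1, 0.0360 without WT vehicle replicate 2) and the KO share difference from -0.244 to -0.148. Fits without the highest Scrublet scores could not be fitted, and with none of the 6 excluded genes only the KO comparison could. Few nuclei per library limit every single-gene result.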

Other observations

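Lcn2, an acute-phase gene chosen after its values were seen, had 1 UMI in WT vehicle and 30 UMIs in WT DMXAA endothelial nuclei. Most of the 30 came from WT DMXAA replicate 1, which held 9 of the 448 nuclei and was at 1315 CPM. Lcn2 had 0 UMIs in both KO groups. Blood cell genes stood at 3621 CPM in KO vehicle replicate 2, smooth muscle genes at 979 CPM in WT vehicle replicate 2 and pericyte genes at 2134 CPM in WT vehicle replicate 4, each the highest of the 16 libraries. Their part in the results was not tested.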
